A study of Homo sapiens with 4 samples.

Results

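The genes described here are 31 genes of cholesterol synthesis, uptake and efflux, chosen by name for their place in the pathway. The choice of names uses no measured value, though it was made with earlier results of these data known. The naming of probes did use measured values, since probes were matched to transcripts through the authors' log ratios. Which genes and probes could be followed therefore depended in part on those values, and large changes were easier to match through a pair of probes. They comprise enzymes of the mevalonate and sterol arms in pathway order, the regulators of the transcription factor SREBP2, and genes of sterol transport, esterification, receptor turnover and efflux. All 31 had at least 1 named probe on the array, out of 16131 genes that could be named, and 30 of them were detected well enough to be tested, out of 9602 named genes tested. Transcript levels were measured on 4 Illumina expression BeadChip arrays with total RNA of MDA-231 (MDA-MB-231), an established human line from breast cancer. The groups were cells transfected with pCMV-TARBP2 (2 arrays) and cells transfected with pCMV-GFP (2 arrays), both plasmids using the CMV promoter, both given by transient transfection with the TransIT reagent in serum-containing medium, and both harvested after 48 hours. TARBP2 is a double-stranded RNA-binding protein and a partner of DICER1. The design text of the series calls the controls mock-transfected, while the sample labels give a GFP plasmid; the sample labels are used here.

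Cells make cholesterol from acetyl-CoA through mevalonate, isoprenoid diphosphates, squalene and lanosterol. When sterol in the endoplasmic reticulum is low, SCAP carries SREBP2 (encoded by SREBF2) to the Golgi, where it is cut into an active transcription factor that raises nearly every enzyme of the route, while INSIG1 and INSIG2 hold SCAP back when sterol is plentiful. The liver X receptors NR1H2 and NR1H3 respond to oxysterols and raise genes of cholesterol export such as ABCA1 and ABCG1.

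The plasmid was seen in the data. The brighter TARBP2 probe read 35146.1 and 35824.5 units of raw intensity on the TARBP2 arrays, against 201.5 and 178.6 on the GFP arrays, or 257-fold higher after normalization (mean log2 level 15.12 ± 0.0067 in TARBP2 cells and 7.12 ± 0.20 in GFP cells, SD, n = 2 arrays per group, limma adjusted p = 4.79e-05). A dimmer TARBP2 probe, tied to another transcript, had a log2 change of -0.22 (adjusted p = 0.0722), and its place relative to the plasmid insert was not checked. Between 44.1% and 45.9% of probes were detected on an array, and 2 arrays of a group correlated at 0.996 (Pearson's r across detected probes, which are not independent replicates), while arrays of different groups correlated at 0.968. Of the markers of MDA-231 as a mesenchymal line, AXL, CD44, MSN, TGFBI and ZEB1 were detected, SPARC was not above background, and VIM and CAV1 had no named probe. The level summed over the 6 with a probe was 25676 to 26166 units on the TARBP2 arrays, against 29611 to 30577 units on the GFP arrays; by brightest probe AXL and MSN fell by 0.52 and 0.45 on the log2 scale (adjusted p = 0.00741 and 0.0117) and TGFBI rose by 0.65 (adjusted p = 0.00426). Among luminal or epithelial markers, 4 of 7 with a probe were detected (CDH1, CLDN4, GATA3 and KRT8). The level summed over the 7 was 2385 to 2456 units on the TARBP2 arrays, against 2523 to 2619 units on the GFP arrays. CDH1 was above background only on the GFP arrays and at least 1.14-fold lower on the TARBP2 arrays. GATA3 was above background only on the TARBP2 arrays and at least 1.13-fold higher there. CLDN4 and KRT8 did not pass. Among leukocyte markers only CD14 was detected of 5 with a probe, with CD3E, CD79A and PTPRC among those not above background. The summed level was 685 to 711 units on the TARBP2 arrays, against 242 to 273 units on the GFP arrays. CD14 itself had a log2 change of 1.96 by its brightest probe (limma adjusted p = 0.000863). The part of these markers in the results below was not tested. An array averages over a whole culture, so fewer cells with a transcript and less of it per cell cannot be told apart.

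Most enzymes of cholesterol synthesis were lower in TARBP2 cells. Of the 30 genes tested, 17 (56.7%) fell and 3 rose, where a gene is called at an adjusted p under 0.05 by its brightest probe. Among all named genes tested in the same way 23.4% fell and 24.7% rose, or 48.0% in either direction. The median log2 change over the 30 genes was -0.44, against -0.0019 over all named genes, and single genes ranged from -1.75 for HMGCS1 to 0.65 for INSIG2. At least 2-fold lower levels were found for 5 of the 30 (4.38% of named genes), and at least 1.5-fold lower levels for 12 of the 30 (11.2% of named genes). Both TARBP2 arrays lay below both GFP arrays for 25 of the 30 genes (38.7% of named genes) and above them for 3 (39.4% of named genes). Each of the 30 was detected on all 4 arrays, so no gene entered the count through a single group. The remaining gene, LBR, a sterol reductase that also anchors chromatin to the nuclear envelope, was detected by its named probe on 1 of the TARBP2 arrays and neither GFP array and was not tested.

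**Figure D1:**
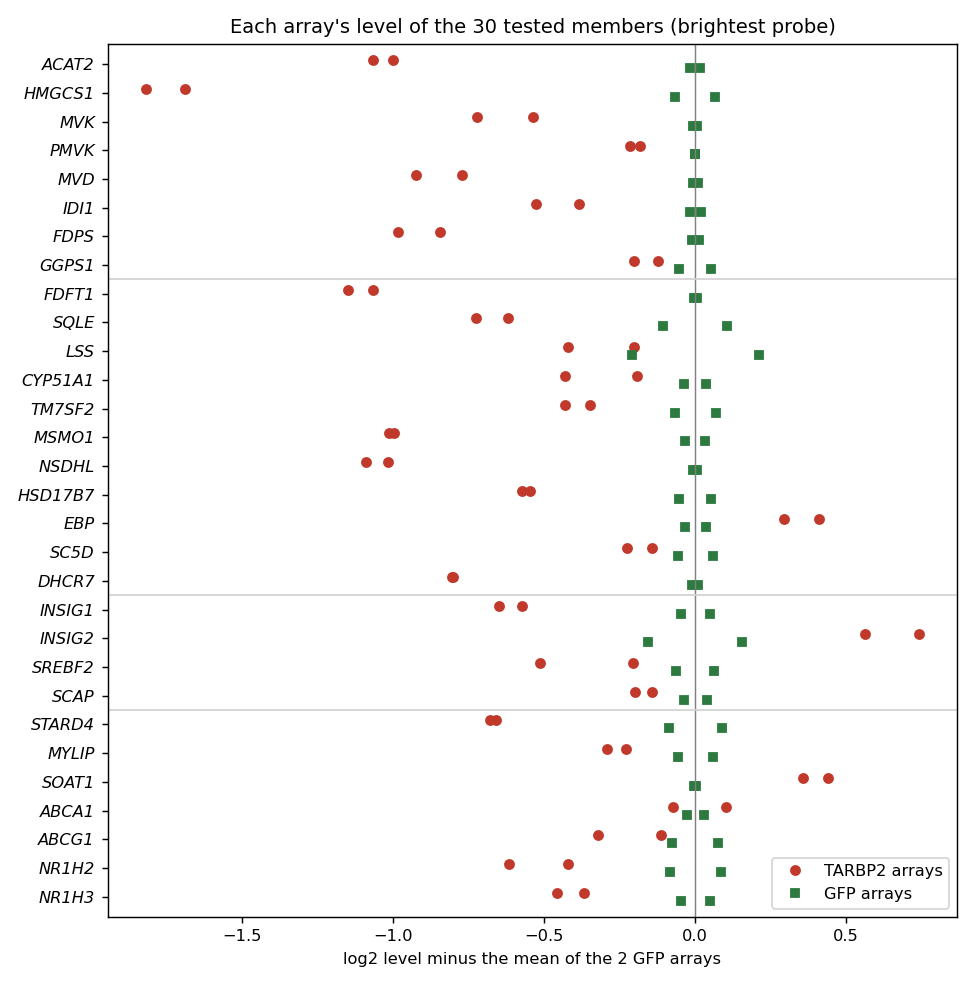
Log2 level of each of the 30 tested genes on each array, minus the mean of the 2 GFP arrays; circles are TARBP2 arrays, squares are GFP arrays, and grey lines separate the mevalonate arm, the sterol arm, the SREBP2 regulators and the transport genes. Both circles lie left of both squares for 25 genes and right of them for EBP, INSIG2 and SOAT1, and the groups overlap for LSS and ABCA1.

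In the mevalonate arm 6 of 8 genes fell (75%, against 23.4% of all named genes), with a median log2 change of -0.74. ACAT2, the cytosolic thiolase that joins acetyl-CoA units, read 3041.9 and 2958.6 units of raw intensity on the TARBP2 arrays, against 5985.4 and 6217.2 on the GFP arrays. The groups were far apart, and the normalized level was 2.05-fold lower (log2 change -1.03 ± 0.08, SE, adjusted p = 0.00132). The dimmer ACAT2 probe, at 201.8 and 208.6 units against 413.6 and 451.7, had a log2 change of -1.28 (adjusted p = 0.000956). HMGCS1, the synthase of the next step, read 734.6 and 681.9 units on the TARBP2 arrays, against 2369.3 and 2196.4 on the GFP arrays. It was 3.37-fold lower (log2 change -1.75 ± 0.09, SE, adjusted p = 0.000605), the deepest fall in the module. The kinases that follow differed in size. MVK, mevalonate kinase, fell by 0.63 ± 0.09 on the log2 scale (SE, adjusted p = 0.0081), at 139.1 and 152.1 units on the TARBP2 arrays, against 197.6 and 203.7 on the GFP arrays. PMVK, phosphomevalonate kinase, read 526.2 and 544.4 units on the TARBP2 arrays, against 602.1 and 613.9 on the GFP arrays, and its log2 change of -0.20 did not pass (adjusted p = 0.0879).

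MVD, the decarboxylase that yields isopentenyl diphosphate, read 169.6 and 158.9 units on the TARBP2 arrays, against 255.5 and 259.4 on the GFP arrays, and fell by 0.85 ± 0.09 (log2, SE, adjusted p = 0.00308). IDI1, the isomerase of that product, read 1500.2 and 1402.0 units on the TARBP2 arrays, against 1952.9 and 2030.8 on the GFP arrays, and fell by 0.46 ± 0.09 (adjusted p = 0.0149). FDPS, which makes farnesyl diphosphate, read 965.0 and 1073.4 units on the TARBP2 arrays, against 1860.4 and 1926.6 on the GFP arrays. Its arrays did not overlap between groups, and it was 1.89-fold lower (log2 change -0.92 ± 0.09, SE, adjusted p = 0.00235). GGPS1 stands on a side branch, where farnesyl diphosphate is extended for protein prenylation. Its brighter probe read 1051.2 and 1018.0 units on the TARBP2 arrays, against 1192.2 and 1132.7 on the GFP arrays, and its log2 change was -0.16, with a 95% interval of -0.38 to 0.055 (adjusted p = 0.185). The annotation lists 10 pseudogenes named after FDPS, 3 named after IDI1 and, in the sterol arm, 3 named after CYP51A1. No probe sequences were used, so reads of such copies by these probes were not checked.

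In the sterol arm 7 of 11 tested genes fell (63.6%, against 23.4% of all named genes) and 1 rose (9.09%, against 24.7%). The median log2 change was -0.56. FDFT1, squalene synthase, commits farnesyl diphosphate to sterols. Its brighter probe read 4053.2 and 4380.4 units on the TARBP2 arrays, against 9170.8 and 9177.6 on the GFP arrays, and its other probe read 1398.2 and 1436.8 against 3249.1 and 3288.3. Both probes were more than 2-fold lower, with log2 changes of -1.11 and -1.22 (adjusted p = 0.00116 and 0.000773). SQLE, the epoxidase that oxidizes squalene, fell by 0.67 ± 0.11 (log2, SE, adjusted p = 0.00902) by its brighter probe, at 1512.1 and 1445.7 units on the TARBP2 arrays, against 2510.1 and 2215.6 on the GFP arrays. Its dimmer probe had a log2 change of -0.69.

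LSS, which closes the ring to lanosterol, was measured by a dim probe that read 84.5 and 90.7 units on the TARBP2 arrays, against 107.4 and 93.6 on the GFP arrays. These groups overlapped after normalization, and the log2 change of -0.31 had a 95% interval of -0.75 to 0.13 (adjusted p = 0.207). CYP51A1, the demethylase of lanosterol, read 1817.7 and 2191.6 units on the TARBP2 arrays, against 2423.3 and 2587.7 on the GFP arrays, with a log2 change of -0.31 (adjusted p = 0.0779). CYP51A1 passed under 7 of the 11 alternatives that keep all 4 arrays, among them the authors' quantile-normalized values (adjusted p = 0.0298). TM7SF2, a sterol reductase with the same activity as LBR, fell by 0.39 ± 0.09 (adjusted p = 0.0245), at 180.8 and 190.2 units on the TARBP2 arrays, against 218.8 and 240.8 on the GFP arrays.

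MSMO1, NSDHL and HSD17B7 act together to strip methyl groups from the sterol ring. NSDHL read 1108.8 and 1072.9 units on the TARBP2 arrays, against 2209.7 and 2235.7 on the GFP arrays, and was 2.08-fold lower (log2 change -1.05 ± 0.08, SE, adjusted p = 0.00125). HSD17B7 read 1742.5 and 1757.3 units on the TARBP2 arrays, against 2663.2 and 2536.1 on the GFP arrays, and fell by 0.56 ± 0.08 (adjusted p = 0.00726); 2 pseudogenes carry its name. The probes of MSMO1 differed. The brightest read 2743.8 and 2764.3 units on the TARBP2 arrays, against 5627.7 and 5494.8 on the GFP arrays, with a log2 change of -1.01 (adjusted p = 0.00135). The other MSMO1 probes had log2 changes of -0.19 (adjusted p = 0.125) and -0.015 (adjusted p = 0.931), so the call for this gene rested on the choice of probe.

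The late enzymes did not share one direction. EBP, the sterol isomerase, was the synthesis enzyme that rose, at 844.2 and 921.2 units on the TARBP2 arrays, against 679.4 and 724.0 on the GFP arrays (log2 change 0.35 ± 0.08, SE, adjusted p = 0.0285). SC5D, the desaturase after it, read 1363.9 and 1320.1 units on the TARBP2 arrays, against 1450.2 and 1616.4 on the GFP arrays, and its log2 change of -0.18 did not pass (adjusted p = 0.153). DHCR7, the reductase that turns the direct precursor into cholesterol, read 1121.1 and 1130.9 units on the TARBP2 arrays, against 1937.3 and 1947.2 on the GFP arrays. It was 1.75-fold lower (log2 change -0.80 ± 0.07, adjusted p = 0.00217), and its other probe was 1.63-fold lower. Over both arms 13 of 19 enzymes tested fell (68.4%, against 23.4% of all named genes) and 1 rose (5.26%, against 24.7%). The median log2 change was -0.63.

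**Figure D2:**
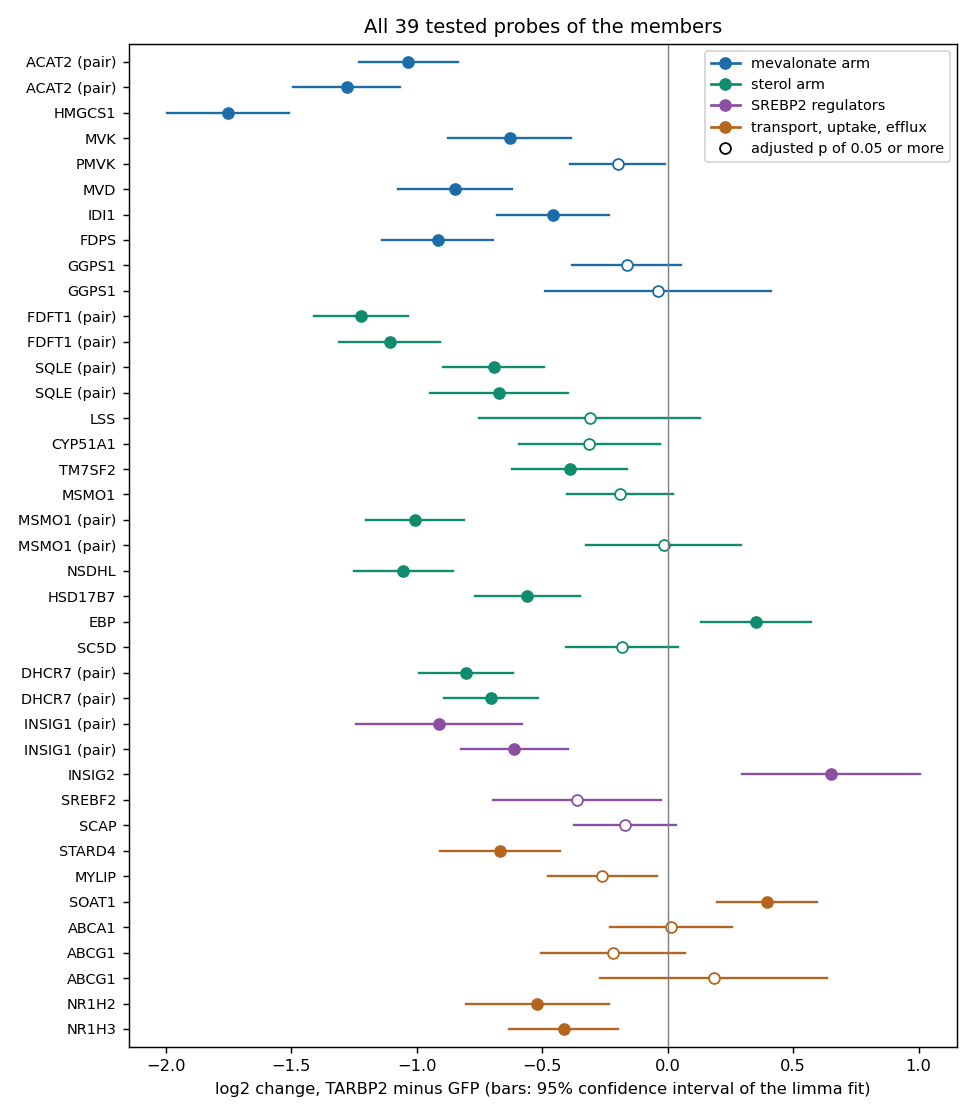
Log2 change (TARBP2 minus GFP) of all 39 tested probes of the module in pathway order, with 95% confidence intervals of the limma fit; filled circles passed at an adjusted p under 0.05 and open circles did not, and "pair" marks probes named through a pair of probes. Of the 39 probes 22 fell, 3 rose and 14 did not pass, and the HMGCS1 probe lies farthest to the left at -1.75.

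Among 8 genes with several tested probes, 5 (ACAT2, FDFT1, SQLE, DHCR7 and INSIG1) fell by every probe. The way probes were named bears on the counts. Probes were named by matching the authors' log ratio for a transcript to the probe values, either to 1 probe or to the mean of a pair, and a pair match could be recognised chiefly where the change was large. By probe, 22 of 39 fell and 3 rose, against 19.8% lower and 20.5% higher (40.3% in either direction) of all probes tested. The 6 genes named through a pair (ACAT2, FDFT1, SQLE, MSMO1, DHCR7 and INSIG1) all fell, against 45.1% of all 677 genes named that way. On probes tied alone to a transcript, 11 of 25 genes of the module fell, against 21.9% of 9018 named genes, and the median log2 change was -0.31. The authors' deposited table needs no such matching. It holds 38 transcripts of the 31 genes. Of these 38, 19, from 19 genes, carry its class of down-regulated, against 12.0% of 22408 named transcripts. The highest log ratio in that class was -0.200. The 22408 were not filtered on detection and include transcripts not above background. Because 30 of the 31 genes were detected on all 4 arrays, these shares are not of like sets. In the authors' deposited table the untied transcripts of LSS and LBR had log ratios of -0.15 and 0.14.

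Of the 4 regulators tested, 1 fell (25%, against 23.4% of all named genes) and 1 rose (25%, against 24.7%). Both shares are near those of all named genes, and the median log2 change was -0.27. INSIG1 is a retention protein and itself a target of SREBP2. Its brighter probe read 1422.1 and 1381.6 units on the TARBP2 arrays, against 2046.8 and 2227.2 on the GFP arrays. INSIG1 fell by 0.61 ± 0.08 (log2, SE, adjusted p = 0.00618), and its dimmer probe had a log2 change of -0.91. INSIG2, its relative with the same retention role, read 758.6 and 685.2 units on the TARBP2 arrays, against 432.6 and 531.4 on the GFP arrays. It was 1.57-fold higher (log2 change 0.65 ± 0.14, adjusted p = 0.0198), and the groups did not overlap. The INSIG2 call depended on which arrays were kept, as described below. SREBF2 was measured by a dim probe, at 97.7 and 87.1 units on the TARBP2 arrays, against 104.4 and 110.9 on the GFP arrays, and its log2 change of -0.36 had a 95% interval of -0.70 to -0.025 (adjusted p = 0.0834). SCAP, the escort of SREBP2, read 1819.3 and 1787.8 units on the TARBP2 arrays, against 2083.0 and 2021.1 on the GFP arrays, with a log2 change of -0.17 (95% interval -0.38 to 0.033, adjusted p = 0.147).

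Promoters are shown for the gene of the transcription factor, for the enzyme with the deepest fall and for the INSIG pair that moved in opposite directions. Each is the 250 bases before a start site from RefSeq (GRCh38.p14), written 5′ to 3′ on the gene's strand, and 27 of the 31 genes matched an entry. Capitals mark the core of the sterol regulatory element (TCACNCCAC), the NF-Y box (CCAAT, or ATTGG on the other strand) and the E-box (CACGTG), each searched on both strands. The windows lie at chr22:41832855-41833104 (plus strand) for SREBF2, chr5:43313413-43313662 (minus strand) for HMGCS1, chr7:155297628-155297877 (plus strand) for INSIG1 and chr2:118088221-118088470 (plus strand) for INSIG2.
SREBF2: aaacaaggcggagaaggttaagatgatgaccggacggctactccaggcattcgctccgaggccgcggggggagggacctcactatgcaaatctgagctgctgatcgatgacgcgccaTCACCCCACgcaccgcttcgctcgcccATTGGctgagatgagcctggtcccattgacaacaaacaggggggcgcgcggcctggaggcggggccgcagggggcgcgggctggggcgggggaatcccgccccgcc
HMGCS1: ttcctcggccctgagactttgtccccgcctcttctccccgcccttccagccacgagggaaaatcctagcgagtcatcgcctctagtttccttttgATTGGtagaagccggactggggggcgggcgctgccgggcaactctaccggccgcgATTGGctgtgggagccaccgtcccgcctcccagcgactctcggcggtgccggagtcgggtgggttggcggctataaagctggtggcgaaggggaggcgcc
INSIG1: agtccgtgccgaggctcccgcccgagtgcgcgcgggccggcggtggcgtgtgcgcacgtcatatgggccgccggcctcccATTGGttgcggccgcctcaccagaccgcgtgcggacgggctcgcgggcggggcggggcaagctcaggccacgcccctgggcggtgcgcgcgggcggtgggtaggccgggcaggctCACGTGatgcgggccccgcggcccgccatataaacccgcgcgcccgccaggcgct
INSIG2: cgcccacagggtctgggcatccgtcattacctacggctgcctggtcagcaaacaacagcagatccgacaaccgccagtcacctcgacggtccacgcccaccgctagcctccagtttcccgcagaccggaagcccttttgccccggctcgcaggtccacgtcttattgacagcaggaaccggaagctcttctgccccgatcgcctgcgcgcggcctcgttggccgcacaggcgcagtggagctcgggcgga
The SREBF2 window holds the regulatory element core and an NF-Y box, HMGCS1 holds 2 NF-Y boxes, INSIG1 holds an NF-Y box and an E-box, and INSIG2 holds none of these letters. HMGCS1 and INSIG2 each have a second window in the table, not printed, and neither of those holds any of the motifs.

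The NF-Y box stood in 22 of 38 promoter windows of the module, against 32.0% of 35116 windows in the table. By gene, 13 of 14 genes that fell and had an entry held it in at least 1 window, as did 2 of 3 that rose and 5 of 9 that did not pass, against 42.1% of 7654 named genes tested. HMGCS1, MVK, MVD, IDI1, FDPS, MSMO1, NSDHL, HSD17B7, TM7SF2, DHCR7, INSIG1, STARD4 and NR1H3 were the 13. The sterol element core was in 1 window of the module (0.883% of all windows), the E-box in 5 (6.34%), and the liver X receptor element (AGGTCA repeated after a spacer of 4 bases) in none (0.0142%). Some genes have several windows, which can overlap. These matches describe letters in short windows and not bound sites.

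Of 7 genes of transport, esterification and efflux, 3 fell (42.9%, against 23.4% of all named genes) and 1 rose (14.3%, against 24.7%), with a median log2 change of -0.26. STARD4, a soluble carrier of sterol between membranes and a target of SREBP2, read 169.3 and 171.7 units on the TARBP2 arrays, against 230.1 and 259.0 on the GFP arrays. It fell by 0.67 ± 0.09 (log2, SE, adjusted p = 0.00646). SOAT1, which stores cholesterol as esters, read 727.8 and 778.6 units on the TARBP2 arrays, against 577.8 and 590.9 on the GFP arrays, and was 1.32-fold higher (log2 change 0.40 ± 0.08, adjusted p = 0.016). MYLIP, a ubiquitin ligase that marks lipoprotein receptors for degradation, read 786.4 and 768.1 units on the TARBP2 arrays, against 946.7 and 900.6 on the GFP arrays. Its log2 change of -0.26 did not pass (adjusted p = 0.0638), though it did under 7 of the 11 alternatives that keep all 4 arrays.

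Both liver X receptors were lower. NR1H3 read 1064.3 and 1026.1 units on the TARBP2 arrays, against 1412.9 and 1355.0 on the GFP arrays, and fell by 0.41 ± 0.08 (adjusted p = 0.0178). NR1H2 read 210.0 and 190.5 units on the TARBP2 arrays, against 276.5 and 257.7 on the GFP arrays, and fell by 0.52 ± 0.11 (adjusted p = 0.0203). The export pumps that these receptors control did not pass the test. ABCA1 read 796.0 and 904.1 units on the TARBP2 arrays, against 819.2 and 867.1 on the GFP arrays, with overlapping groups and a log2 change of 0.013 (95% interval -0.23 to 0.26, adjusted p = 0.929). ABCG1 read 256.6 and 231.2 units by its brightest probe on the TARBP2 arrays, against 260.1 and 289.7 on the GFP arrays, with a log2 change of -0.22 (95% interval -0.51 to 0.069, adjusted p = 0.179). Its second tested probe was at 0.18 (adjusted p = 0.449), and a further ABCG1 probe was not above background on any array.

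With 2 arrays per group, some calls rested on single arrays. The shares of all named genes given above belong to the fit of all 4 arrays as reported. The counts in this paragraph have no such share beside them and describe only how the calls depend on arrays and windows. When each array was left out in turn, 12 of the 17 genes that fell passed every time, namely ACAT2, HMGCS1, MVK, MVD, FDPS, FDFT1, MSMO1, NSDHL, HSD17B7, DHCR7, INSIG1 and STARD4. SQLE did not pass without TARBP2 replicate 2 (adjusted p = 0.0603), and IDI1, TM7SF2, NR1H2 and NR1H3 each passed in 1 of the 4 fits, with adjusted p-values up to 0.0685, 0.11, 0.0926 and 0.0864. EBP and SOAT1 passed in none of the 4 (adjusted p = 0.0674 to 0.115 and 0.0553 to 0.0762) and INSIG2 only without GFP replicate 2 (adjusted p = 0.0223, against up to 0.106). Genes of this module are spread over the genome, and the median change of the 50 named genes around each differed. It was 0.44 around IDI1, 0.41 around CYP51A1, 0.39 around MSMO1 and -0.36 around NSDHL. With these window medians removed, 22 genes fell and 2 rose, EBP no longer passed (log2 change 0.20, adjusted p = 0.0801), and LSS, CYP51A1, SC5D, MYLIP and ABCG1 did. The log2 change then was -0.89 for IDI1, -0.73 for CYP51A1, -1.40 for MSMO1, -0.69 for NSDHL, -0.67 for TM7SF2, -0.48 for SC5D and -0.57 for ABCG1. The plasmid cannot be told apart from any other difference between the cultures of the groups, and the files name no slide or scan.

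**Figure D3:**
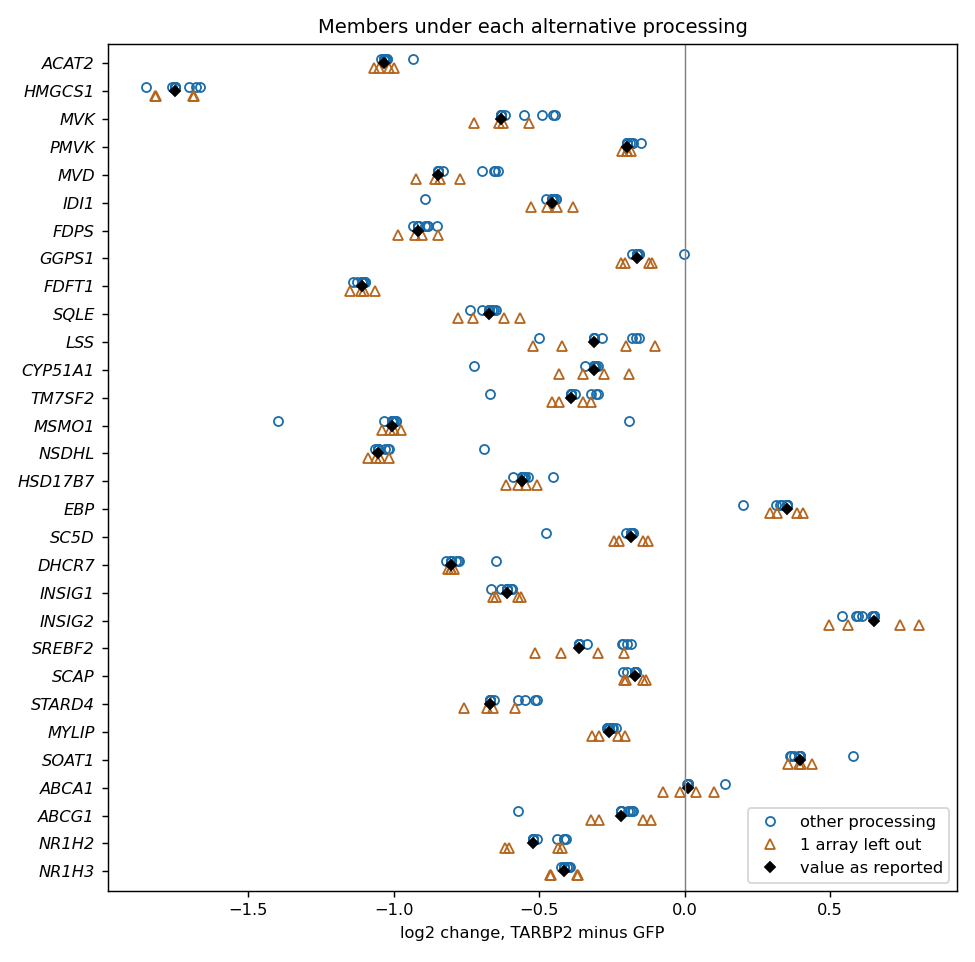
Log2 change (TARBP2 minus GFP) of each tested gene as reported (diamonds), under other processing of all 4 arrays (circles) and with 1 array left out (triangles). No gene that passed changed its sign, HMGCS1 stays between -1.85 and -1.67, and the circle of MSMO1 at -0.19 is its probe tied alone to a transcript.

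Lists of genes around the pathway had median log2 changes between -0.31 and 0.32. Their counts stand against the 24.7% of all named genes tested that rose and the 23.4% that fell. Among genes of SREBP processing and sterol sensing, 7 of 14 tested rose (50%) and 3 fell (21.4%), with a median log2 change of 0.32. The 3 genes of smallest p encode cargo adaptors of the vesicle coat that carries SCAP out of the endoplasmic reticulum. SEC24B read 1494.7 and 1650.2 units on the TARBP2 arrays, against 828.1 and 798.4 on the GFP arrays, and rose by 1.01 ± 0.09 (log2, SE, adjusted p = 0.00188). SEC24D and SEC24A rose by 0.93 and 0.68 (adjusted p = 0.00264 and 0.00506). The remaining adaptor of this family, SEC24C, read 2916.5 and 3164.2 units on the TARBP2 arrays, against 2734.9 and 3103.9 on the GFP arrays, with overlapping groups and a log2 change of 0.082 (adjusted p = 0.522); it is named here after its values were seen. With window medians removed the median of this list was 0.092.

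Among oxysterol makers and partners or targets of the liver X receptors, 2 of 10 rose (20%) and 2 fell (20%), with a median log2 change of -0.035; both shares are near those of all named genes (24.7% rose and 23.4% fell). The risers both make oxysterols, which are ligands of the liver X receptors and hold SREBP2 back. CYP27A1, a mitochondrial sterol hydroxylase, read 248.8 and 272.6 units on the TARBP2 arrays, against 128.5 and 143.0 on the GFP arrays, and was 2.46-fold higher (SE 0.11 on the log2 scale, adjusted p = 0.00167). CH25H, an interferon-induced cholesterol hydroxylase, read 348.8 and 346.3 units on the TARBP2 arrays, against 161.5 and 194.3 on the GFP arrays, and was 2.36-fold higher (log2 change 1.24 ± 0.13, adjusted p = 0.00314). Both CYP27A1 and CH25H passed in every alternative in which they were tested.

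Of sterol carriers, receptors and ester enzymes, 8 of 16 rose (50%, against 24.7% of all named genes) and 2 fell (12.5%, against 23.4%), with a median log2 change of 0.26. GRAMD1B, which moves cholesterol from the plasma membrane to the endoplasmic reticulum, read 173.8 and 172.8 units on the TARBP2 arrays, against 62.3 and 64.8 on the GFP arrays, where it was not above background. It was at least 3.67-fold higher, a bound set by the lowest detected level on each GFP array. GRAMD1B entered the test only through the TARBP2 arrays, and without it 7 of 15 rose. NCEH1, a hydrolase of cholesterol esters, fell by 0.80 ± 0.08 (adjusted p = 0.00271) and the lipoprotein receptor VLDLR fell by 1.08 ± 0.11 (adjusted p = 0.00339).

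In the isoprenoid branches that leave the pathway before squalene, 5 of 14 genes rose (35.7%, against 24.7% of all named genes) and 4 fell (28.6%, against 23.4%), with a median log2 change of -0.14. PDSS2 and COQ2, which make the ubiquinone tail and attach it, moved in opposite directions, by -0.91 ± 0.08 and 0.84 ± 0.08 (SE, adjusted p = 0.00216 and 0.00298). ICMT, which methylates prenylated proteins, fell by 0.60 ± 0.08 (adjusted p = 0.00505). In fatty acid synthesis, which SREBF1 governs, 5 of 11 fell (45.5%, against 23.4% of all named genes) and 3 rose (27.3%, against 24.7%), with a median log2 change of -0.31. The desaturase FADS1 fell by 0.68 ± 0.08 and ACSS2, which makes acetyl-CoA from acetate, fell by 0.57 ± 0.08 (adjusted p = 0.00477 and 0.00706), while the transcription factor gene MLXIPL was not above background on the GFP arrays and at least 1.14-fold higher on the TARBP2 arrays. MLXIPL entered the test only through the TARBP2 arrays, and without it 2 of 10 rose. SREBF1 itself had a log2 change of -0.31 (adjusted p = 0.0759).

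**Figure D4:**
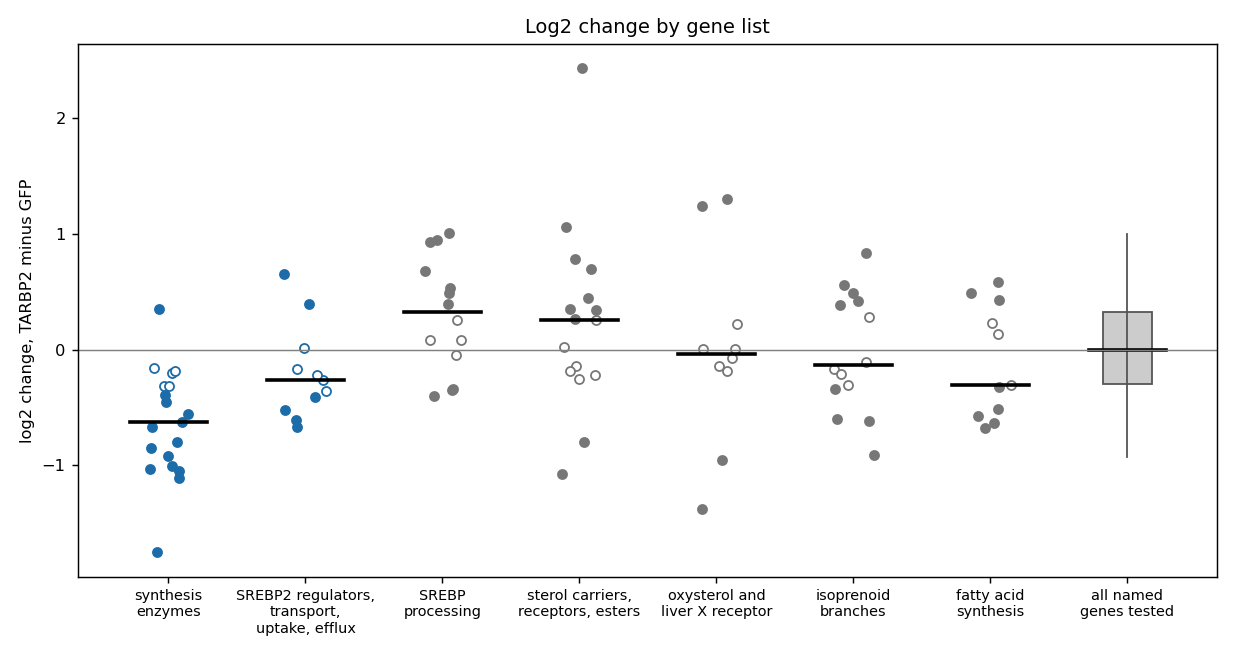
Log2 change (TARBP2 minus GFP) of the tested genes of each list, by their brightest probe; filled circles passed at an adjusted p under 0.05, black bars are medians, and the box shows the quartiles and the line the 5th to 95th percentiles of all named genes. The enzymes have a median of -0.63 and a single gene above 0, while the all-gene quartiles are -0.30 and 0.32.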

How the data were processed

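RNA of 2 TARBP2 and 2 GFP samples was measured, with groups and replicate numbers taken from the labels, which do not say that replicates were separate cultures, so the spread behind each p-value is that between arrays and may be technical. The deposited intensities, not normalized and linear, cover 47323 probes, with a deposited detection p-value beside each, per the file headers. The authors' value table holds intensities with identical quantiles across arrays, and the submitters' processing notes name lumi. The authors' final table gives, per the file headers, a log ratio (taken as log2) for each of 39747 transcripts with a class, either down-regulated or background, deposited by the authors.

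No table pairs probes with transcripts, so the pairing was worked out numerically. The authors' log ratio equalled the difference of group means of a scaled inverse hyperbolic sine of the value table. A match within 1e-09 to a single probe tied 33114 transcripts (83.3%), against 13 in a shifted table, and a match of a pair's mean within 7e-10 tied 776 more, against 23. Symbols came from RefSeq (GRCh38.p14).

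limma 3.58.1 (R 4.3.3) ran neqc: normexp background correction informed by detection p-values, an offset of 16, then quantile normalization and log2. The fit kept 22123 probes, those whose detection p was below 0.05 on 2 or more arrays. TARBP2 and GFP were compared with limma (lmFit, eBayes, 2-sided; 2 residual and 2.81 prior degrees of freedom), with Benjamini-Hochberg adjustment over all kept probes. The brightest kept probe stood for a gene. The number of arrays limits the precision. Joining and fitting were tested on simulated data.

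Every gene of the module is named, as are the 3 with the smallest p of each further list; SREBF1 was added after its value was seen, and 1 gene that the rule names is not reported here. CD14 and other markers belong to lists for cell identity. Members and lists were chosen with earlier results of these data known. Alternatives changed the offset, background, normalization, detection filter, prior, probes fitted, neighbouring-gene windows, replicate block and arrays used. Replicate numbers do not show paired samples (correlation of deviations between groups 0.0062 over probes), so the fit has no block.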

Additional observations from a re-analysis of the deposited data

How the results depend on the processing

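Over 443 recomputed values of single genes of the module, 396 kept their direction and side of the threshold, 21 passed only in the alternative, 26 lost their call and 0 changed sign across a call; 24 of the 26 came from leaving out 1 array, where the lone array is assumed to vary like the other group. With an array left out, 12 to 15 genes of the module fell and 0 to 1 rose (median -0.52 to -0.43), and 10 to 12 enzymes fell and 0 rose (median -0.62 to -0.57). In the same fits 0 genes of SREBP processing fell and 4 to 6 rose; 4 to 5 sterol carriers rose; 2 to 3 isoprenoid genes fell and 1 to 3 rose; 3 to 4 fatty acid genes fell and 1 to 3 rose (median -0.35 to -0.20); and the oxysterol median was -0.10 to 0.012.

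On probes tied alone to a transcript, 11 genes of the module (median -0.31), 8 enzymes (median -0.39) and 1 sterol carrier fell and 3 isoprenoid genes rose, with fewer probes fitted. The enzyme median was -0.55 with offset 50, -0.55 without background correction and -0.54 on the authors' value table, where the fatty acid median was -0.23, -0.21 and -0.21. Without a detection filter, the fatty acid median was -0.15 and that of SREBP processing 0.25. The number of sterol carriers that fell was 4 with offset 50, 4 without background correction, 4 with one probe per gene, 5 with a trended prior, 4 with window medians removed and 4 with the stricter filter, which gave that list a median of 0.021 and left 1 oxysterol gene that fell. With window medians removed, the median was -0.56 for the module, 0.092 for SREBP processing, 0.19 for sterol carriers, 0.026 for the oxysterol list and -0.079 for fatty acid synthesis, and 0 enzymes rose. The causes were not tested. The counts under these alternatives have no share of all named genes beside them here. With the replicate number as a replicate block, 17 genes of the module fell, 3 rose and the median was -0.44, and no call of the module changed. Probes near background, such as those of LSS and SREBF2, limit what small changes can be read.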
